A study of Homo sapiens with 12 samples.

Results

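The super elongation complex is represented here by 9 genes, AFF1, AFF4, ELL, ELL2, ELL3, MLLT1, MLLT3, EAF1 and EAF2. They were taken by gene symbol from a table of 57704 endogenous genes, and each symbol matched 1 row. Of the 9 genes, 8 passed the filter on low counts that left 13820 genes for testing, and ELL3 did not. The 12 libraries hold 3′-end tags of polyadenylated RNA from HEK293, a human cell line made from embryonic kidney, here with a stable intron-DARP-EGFP reporter in every library of both groups. Pooled siRNAs against SUPT4H1 were given to 6 of the transfected wells and scrambled siRNAs to the other 6, both at 100 nM, and RNA was taken after 72 hours. All transfections were made from a common culture, so p-values measure how much transfections of it vary and nothing wider. Effects of single siRNAs in the pool cannot be told apart. ERCC standards, RNAs of known amount, were added to each lysate as mix 2 with SUPT4H1 siRNA and as mix 1 with scrambled siRNA.

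The super elongation complex frees RNA polymerase II from its pause near the promoter. It brings the kinase P-TEFb, made of CDK9 and a cyclin T, to paused polymerase, where P-TEFb phosphorylates the polymerase and the pausing factors NELF and DSIF. SUPT4H1 encodes the small subunit of DSIF, which takes part both in pausing and in elongation. AFF1 and AFF4 are alternative scaffolds of the complex, ELL, ELL2 and ELL3 are elongation factors that raise the catalytic rate of the polymerase, EAF1 and EAF2 bind and assist the ELL proteins, and MLLT1 (ENL) and MLLT3 (AF9) carry a YEATS domain that reads acylated histones. Several of these genes were first known as fusion partners of KMT2A (MLL) in acute leukaemia.

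Among the 8 tested genes, EAF1 and MLLT3 rose and EAF2 fell relative to all mRNA in the cells with SUPT4H1 siRNA, and AFF1, AFF4, ELL, ELL2 and MLLT1 did not pass the test. The promoters of these 3 called genes are shown first, because their mRNAs moved in different directions. The sequences run from 250 bases before to 50 bases after the start given by RefSeq (GRCh38.p14) and are not readouts of these libraries. Windows were found for 8 of the 9 genes, with 2 for AFF1. Capitals mark every match, on either strand, to the ETS core CCGGAAGT, the CCAAT box CCAAT, the GC box GGGCGG or a tract of at least 4 CTG units in a row. The TATA box TATAAA and the E-box CACGTG were also searched and had no match in these 3 windows.
EAF1 (chr3:15427348-15427647, plus strand): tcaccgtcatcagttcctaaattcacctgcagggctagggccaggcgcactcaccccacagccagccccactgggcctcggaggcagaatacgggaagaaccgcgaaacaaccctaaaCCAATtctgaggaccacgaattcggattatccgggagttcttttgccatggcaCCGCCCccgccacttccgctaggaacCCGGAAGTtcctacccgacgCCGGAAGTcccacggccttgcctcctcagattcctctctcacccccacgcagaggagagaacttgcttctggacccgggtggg
MLLT3 (chr9:20622450-20622749, minus strand): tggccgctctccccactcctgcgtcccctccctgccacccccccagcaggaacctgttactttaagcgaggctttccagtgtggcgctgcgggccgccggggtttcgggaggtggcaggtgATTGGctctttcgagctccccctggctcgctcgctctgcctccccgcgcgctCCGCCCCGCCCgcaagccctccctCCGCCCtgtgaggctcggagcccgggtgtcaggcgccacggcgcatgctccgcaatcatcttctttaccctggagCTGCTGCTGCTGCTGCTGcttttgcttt
EAF2 (chr3:121834959-121835258, plus strand): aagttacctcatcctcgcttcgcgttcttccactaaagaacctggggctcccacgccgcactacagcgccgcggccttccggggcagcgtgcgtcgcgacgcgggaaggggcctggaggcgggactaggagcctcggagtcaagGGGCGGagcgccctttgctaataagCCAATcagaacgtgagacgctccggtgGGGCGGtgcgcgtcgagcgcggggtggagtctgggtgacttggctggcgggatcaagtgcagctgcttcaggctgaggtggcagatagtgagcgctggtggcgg

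The EAF1 window held 2 ETS cores, starting 53 and 33 bases before the start, besides a CCAAT box and a GC box, and none of the other windows of the complex held an ETS core. An ETS core occurred in 1453 of 35116 promoter windows of the same length (4.14%). The EAF2 window held a CCAAT box and 2 GC boxes. A CCAAT box was found in 6 of the 9 windows and in 34.6% of all windows, and a GC box in 9 of 9 and in 45.0% of all. G and C made up 60.3% to 77.7% of the bases in the 9 windows and 57.5% on average over all windows. The shares of all windows were not matched for base content. In MLLT3 the first 2 of the 3 GC boxes share a base, and a run of 6 CTG units began at base 23 of the transcribed part. A tract of at least 4 units occurred in 99 of all windows (0.282%) and in 1 of the 9. The motifs were picked after the sequences had been seen, and no match was tested against expression.

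In the libraries, endogenous counts summed to between 6591194 and 11366971 with SUPT4H1 siRNA and to between 7337033 and 20269171 with scrambled siRNA. SUPT4H1 itself was at 20.8 ± 1.79 CPM (endogenous counts scaled to 1e+06 per library, with TMM factors) with its siRNAs and at 184 ± 8.96 CPM with scrambled siRNA (SD, n = 6 each), and every library was on its label's side. SUPT4H1 siRNA replicate 6 stood apart from its group on the second principal component (38.4, against −19.5 to −3.92 in the others of its group), and results are given without it where it bears on them. Scrambled siRNA replicate 2 was the highest of its own group on this component (21.7, against −7.25 to 8.25 in the others). The RNA integrity number ran from 9.6 to 10 with SUPT4H1 siRNA and from 9.9 to 10 with scrambled siRNA. Of 8 markers known from HEK293 cells all passed the filter. Relative to all mRNA 1 rose and 2 fell, where 20.3% of all tested genes rose and 19.8% fell. Against the ERCC standards 7 fell and 0 rose, where 59% of all tested genes fell. PAX2 and NEFM were low, at 0.996 and 1.13 CPM with SUPT4H1 siRNA and 1.59 and 1.55 CPM with scrambled siRNA. Of 12 markers of leukocytes, endothelium, fibroblasts and hepatocytes COL1A1 alone passed the filter. It was at 4.57 ± 1.31 CPM with SUPT4H1 siRNA and 6.36 ± 1.74 CPM with scrambled siRNA (SD, n = 6 each). PTPRC and CDH5 had no count in any library.

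Values are given on a relative scale, on which each gene is set against all mRNA of its library, and on a spike-in scale, on which libraries are set against the 23 ERCC standards whose amount is nominally equal in both mixes. On the relative scale 2 of the 8 genes rose and 1 fell (edgeR quasi-likelihood test, adjusted p under 0.05 over all genes), where 20.3% of all tested genes rose and 19.8% fell. The median relative log2 fold change of the 8 genes was 0.08, against 0.00 over all genes tested. A share of 3 in 8 is near the background of 40.1% called in either direction.

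**Figure D1:**
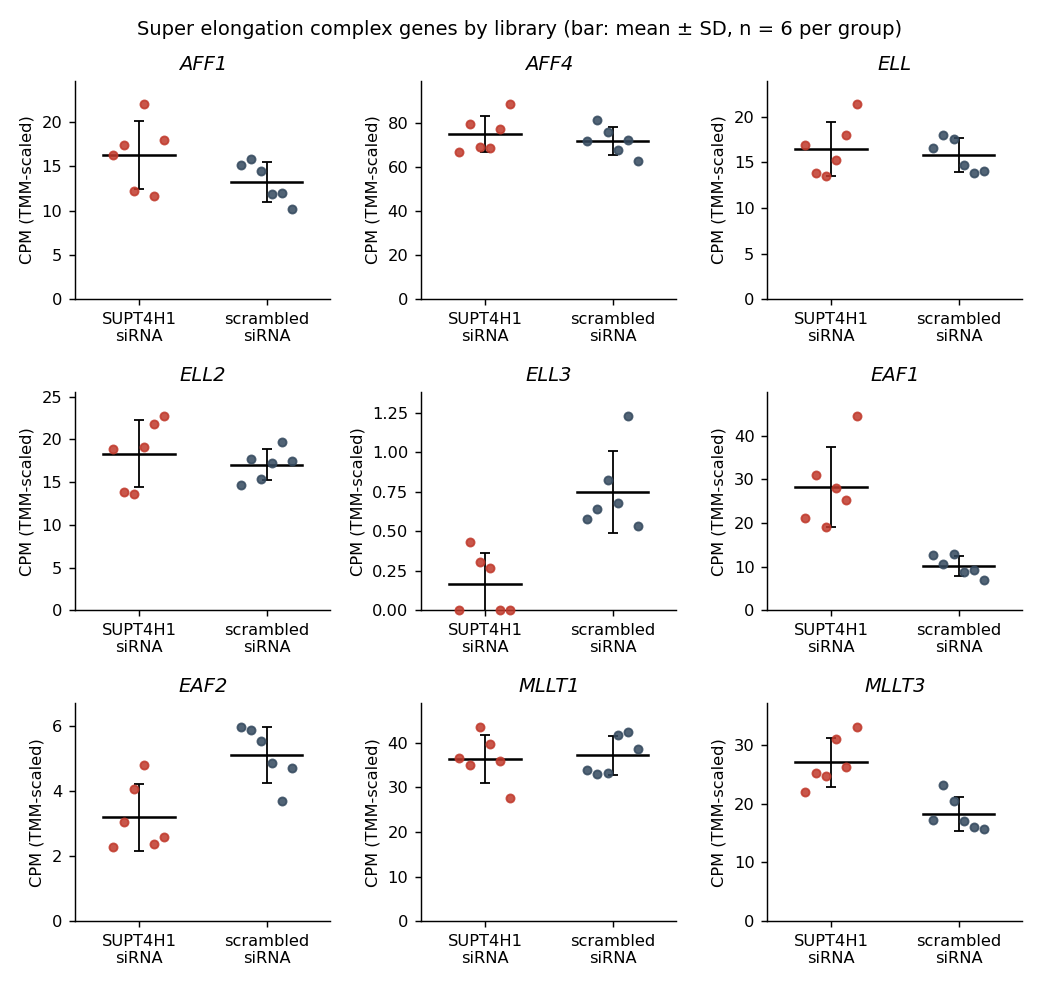
Level of each gene in CPM (TMM-scaled, vertical axes from 0) in the 6 libraries with SUPT4H1 siRNA (red) and the 6 with scrambled siRNA (dark blue), with the mean and SD. The EAF1 libraries with SUPT4H1 siRNA (19.1 to 44.6 CPM) all lie above those with scrambled siRNA (6.83 to 12.95 CPM), and those of ELL3 all lie below, while the other 7 genes overlap. Of all tested genes, 20.2% showed no overlap.

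Neither scaffold gene passed the test on the relative scale. AFF4 was the most abundant gene of the complex by 3′ tags, at 67.0, 73.3 and 88.6 CPM (lowest, median and highest of 6 libraries) with SUPT4H1 siRNA and 62.8, 72.2 and 81.5 CPM with scrambled siRNA. The groups overlapped, with SUPT4H1 siRNA replicate 6 above all scrambled libraries and scrambled siRNA replicate 6 below all SUPT4H1 siRNA libraries. The AFF4 relative log2 fold change was 0.06 (SE 0.08, edgeR adjusted p = 0.62), and −0.02 without SUPT4H1 siRNA replicate 6. AFF1 was at 11.7, 16.8 and 22.0 CPM with SUPT4H1 siRNA and 10.2, 13.3 and 15.8 CPM with scrambled siRNA. In AFF1, 4 of the 6 SUPT4H1 siRNA libraries were above all scrambled ones, and the other 2 were among them. AFF1 differed by 0.28 on the relative log2 scale (SE 0.15, edgeR adjusted p = 0.14) and did not pass the test. AFF1 (ENSG00000172493, chromosome 4, 86935002 to 87141054, plus strand; all positions are from GENCODE 29, GRCh38) and AFF4 (ENSG00000072364, chromosome 5, 132875379 to 132963634, minus strand) share no exon with another annotated gene.

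The ELL genes split into an even pair, ELL and ELL2, and the nearly silent ELL3. ELL, the founding member, had 13.6, 16.1 and 21.4 CPM with SUPT4H1 siRNA and 13.9, 15.6 and 18.1 CPM with scrambled siRNA. ELL2, known in plasma cells for its part in immunoglobulin secretion, had 13.7, 19.0 and 22.8 CPM with SUPT4H1 siRNA and 14.6, 17.4 and 19.7 CPM with scrambled siRNA. With SUPT4H1 siRNA 1 ELL library and 2 ELL2 libraries were above all scrambled ones and 2 of each gene were below them. Their relative log2 fold changes were 0.05 (SE 0.12, adjusted p = 0.79) for ELL and 0.10 (SE 0.13, adjusted p = 0.57) for ELL2. ELL (ENSG00000105656, chromosome 19, 18442663 to 18522127, minus strand) and ELL2 (ENSG00000118985, chromosome 5, 95885098 to 95962071, minus strand) share exons with antisense genes of at most 4 counts in either group.

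ELL3, known from human testis and mouse embryonic stem cells, was near the limit of detection and lower with SUPT4H1 siRNA. Its counts were 0, 5, 3, 2, 0 and 0 in SUPT4H1 siRNA replicates 1 to 6 and 10, 13, 14, 5, 19 and 8 in scrambled siRNA replicates 1 to 6. All 6 SUPT4H1 siRNA libraries were below all scrambled ones in CPM. ELL3 was at 0.168 ± 0.192 CPM with SUPT4H1 siRNA and 0.746 ± 0.258 CPM with scrambled siRNA (SD, n = 6 each). The exact two-sided permutation test, chosen after these counts were seen, gave an unadjusted p = 0.00216, the smallest this design allows. Groups without overlap were seen for 20.2% of all tested genes, which do not include ELL3. The 3 libraries at 0 allow up to 0.268 to 0.455 CPM before TMM by the count of 3 that a 0 can hide, for counting error only. In an edgeR fit without the filter the ELL3 log2 fold change was −2.03 (SE 0.59, adjusted p = 0.0047 over 28353 genes). ELL3 (ENSG00000128886, chromosome 15, 43772600 to 43777543, minus strand) shares its last exon with PDIA3 on the opposite strand, which had 5442 counts with SUPT4H1 siRNA and 6801 with scrambled siRNA, and other exons with SERF2, also on the opposite strand with 24352 counts in SUPT4H1 siRNA libraries and 33609 in scrambled siRNA libraries. It also shares its last exon with AC018512.1, a protein-coding gene on the same strand that had 0 counts in both groups. With no strand setting given, reads of ELL3 and of the opposite-strand genes cannot be told apart, and reads of ELL3 and AC018512.1 in their shared exons cannot be told apart with any strand setting, so the ELL3 value is uncertain.

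The EAF genes, whose products partner the ELL proteins, moved in opposite directions. EAF1 was at 19.1, 26.6 and 44.6 CPM (lowest, median, highest) with SUPT4H1 siRNA, against 6.83, 9.99 and 12.95 CPM with scrambled siRNA. The groups did not overlap, and the highest value was that of SUPT4H1 siRNA replicate 6. Non-overlap on the relative scale was seen for 1 of the 8 tested genes and for 20.2% of all tested genes. EAF1 rose 2.73-fold, which is 1.45 on the log2 scale (SE 0.19, edgeR adjusted p = 1.79e-05), or 1.25 without SUPT4H1 siRNA replicate 6 (adjusted p = 7.58e-07). Of 13820 genes tested, 62 (0.449%) had a larger relative log2 fold change than EAF1. EAF1 (ENSG00000144597, chromosome 3, 15427355 to 15450635, plus strand) shares exons with METTL6, EAF1-AS1 and COLQ on the opposite strand. Counts summed with SUPT4H1 siRNA were 1536 for EAF1, 563 for METTL6, 7 for EAF1-AS1 and 22 for COLQ, which alone overlaps the last EAF1 exon. With scrambled siRNA they were 967 for EAF1, 984 for METTL6, 9 for EAF1-AS1 and 24 for COLQ. As no strand setting is given, reads of EAF1 and of these opposite-strand genes in shared exons cannot be told apart.

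EAF2, also known as an androgen-responsive gene of the prostate, was at 2.29, 2.82 and 4.80 CPM with SUPT4H1 siRNA and 3.69, 5.20 and 5.98 CPM with scrambled siRNA. In EAF2, 4 SUPT4H1 siRNA libraries were below all scrambled ones, and the 2 others, replicates 3 and 4, overlapped them. EAF2 fell by 0.69 on the log2 scale (SE 0.20, edgeR adjusted p = 0.0090), with adjusted p = 0.010 without SUPT4H1 siRNA replicate 6. With the RNA integrity number as a covariate its log2 fold change was −0.55 and the call was lost (adjusted p = 0.0565). The counts behind EAF2 were 18 to 40 per library with SUPT4H1 siRNA and 36 to 120 with scrambled siRNA, the lowest of the 8 tested genes. EAF2 (ENSG00000145088, chromosome 3, 121835183 to 121886526, plus strand) overlaps no other annotated gene.

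Of the YEATS genes, MLLT3 rose and MLLT1 did not pass the test. MLLT3 was at 22.0, 25.7 and 33.0 CPM with SUPT4H1 siRNA and 15.7, 17.1 and 23.1 CPM with scrambled siRNA. In MLLT3, 5 of the 6 SUPT4H1 siRNA libraries were above all scrambled ones, and replicate 1 overlapped them. Its relative log2 fold change was 0.55 (SE 0.12, edgeR adjusted p = 0.00098), and 0.46 without SUPT4H1 siRNA replicate 6 (adjusted p = 0.0021). MLLT1 was at 27.6, 36.2 and 43.6 CPM with SUPT4H1 siRNA and 33.0, 36.3 and 42.5 CPM with scrambled siRNA, and its lowest value was that of SUPT4H1 siRNA replicate 6. The MLLT1 log2 fold change was −0.02 (SE 0.10, adjusted p = 0.88). MLLT3 (ENSG00000171843, chromosome 9, 20341665 to 20622543, minus strand) and MLLT1 (ENSG00000130382, chromosome 19, 6210379 to 6279948, minus strand) share no exon with another gene.

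**Figure D2:**
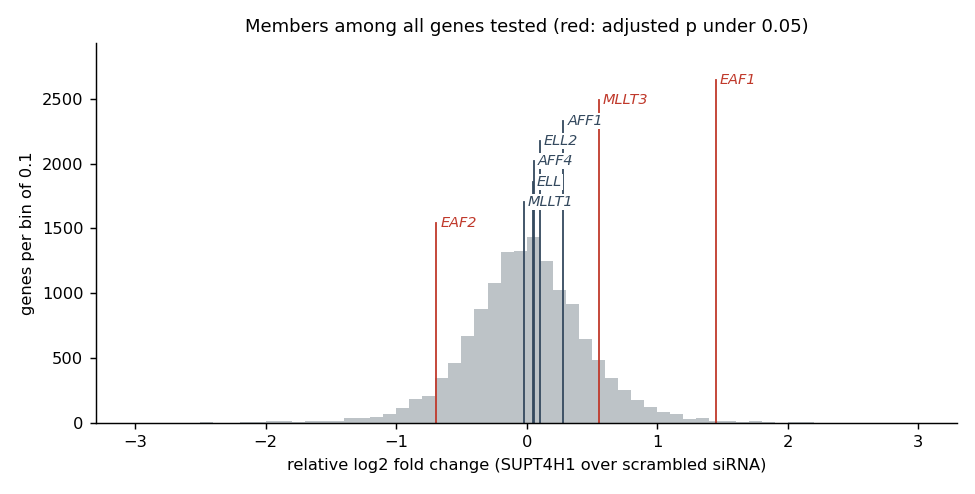
Number of genes per bin of 0.1 (vertical axis) by relative log2 fold change, SUPT4H1 over scrambled siRNA (horizontal axis), for the tested genes between −3 and 3, with the 8 tested members as lines (red where adjusted p is under 0.05). EAF1 lies in the upper tail at 1.45 and EAF2 at −0.69, while AFF4, ELL, ELL2 and MLLT1 lie between −0.02 and 0.10.

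The kit counts a tag near the 3′ end of each molecule, so levels were compared between genes in CPM with no division by length. With SUPT4H1 siRNA the order of mean CPM was AFF4 (75.1), MLLT1 (36.4), EAF1 (28.2), MLLT3 (27.0), ELL2 (18.3), ELL (16.5), AFF1 (16.3), EAF2 (3.20) and ELL3 (0.168). With scrambled siRNA it was AFF4 (72.0), MLLT1 (37.1), MLLT3 (18.2), ELL2 (17.0), ELL (15.8), AFF1 (13.3), EAF1 (10.2), EAF2 (5.11) and ELL3 (0.746). The library ranges of all neighbours from MLLT1 down to AFF1 overlapped with SUPT4H1 siRNA, as did those from MLLT3 down to EAF1 with scrambled siRNA. By mean CPM EAF1 was thus at rank 3 with SUPT4H1 siRNA and at rank 7 with scrambled siRNA. With SUPT4H1 siRNA it was above MLLT3, the next in order, in only 2 of 6 libraries. In replicate 6, which stood apart, EAF1 was at 44.6 CPM and MLLT3 at 33.0 CPM, so its place above MLLT3 leans on that library. Summed over the 9 genes, the tags made 200.5 to 258.5 CPM with SUPT4H1 siRNA and 171 to 206 CPM with scrambled siRNA.

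Ratios between homologous genes within a library do not depend on library size or on the spike-ins, and 4 such ratios were compared by exact two-sided permutation tests (n = 6 per group). The log2 ratio of EAF2 to EAF1 was −3.12 ± 0.66 with SUPT4H1 siRNA and −0.97 ± 0.29 with scrambled siRNA (SD), a difference of −2.14 or 4.41-fold (exact permutation p = 0.00216, adjusted p = 0.0087 over the 4 ratios). All 6 libraries with SUPT4H1 siRNA, from −4.06 to −2.21, were below all scrambled ones, from −1.33 to −0.53. EAF1 made up 89.2% ± 4.45 of the EAF1 and EAF2 tags with SUPT4H1 siRNA and 66.2% ± 4.53 with scrambled siRNA, and the summed level of both genes was 31.4 ± 8.97 CPM with SUPT4H1 siRNA and 15.3 ± 2.97 CPM with scrambled siRNA. The log2 ratio of MLLT3 to MLLT1 was −0.43 ± 0.38 with SUPT4H1 siRNA and −1.03 ± 0.36 with scrambled siRNA, a difference of 0.60 (exact permutation p = 0.019, adjusted p = 0.039).

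The 2 ranges of the MLLT3 to MLLT1 ratio overlapped, and the adjusted p was above 0.05 without any 1 of SUPT4H1 siRNA replicates 2, 4 and 6 and scrambled siRNA replicates 1, 4, 5 and 6 (0.065 to 0.087). Without SUPT4H1 siRNA replicate 6, the only library in which MLLT3 tags outnumbered those of MLLT1, the difference was 0.46. AFF1 to AFF4 was at −2.23 ± 0.37 with SUPT4H1 siRNA and −2.45 ± 0.14 with scrambled siRNA (exact permutation p = 0.21, adjusted p = 0.29). Without SUPT4H1 siRNA replicate 5, whose AFF1 to AFF4 ratio was the lowest of all libraries, the difference was 0.32 and its adjusted p was 0.049. Without SUPT4H1 siRNA replicate 4, whose ratio was the highest, it was 0.10 and its adjusted p was 0.57. ELL2 to ELL was at 0.15 ± 0.14 with SUPT4H1 siRNA and 0.11 ± 0.29 with scrambled siRNA (exact permutation p = 0.78, adjusted p = 0.78). The ELL pair was near even in both groups, with ELL2 at 52.5% ± 2.34 of the ELL and ELL2 tags with SUPT4H1 siRNA and 51.8% ± 4.95 with scrambled siRNA (SD, n = 6 each).

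**Figure D3:**
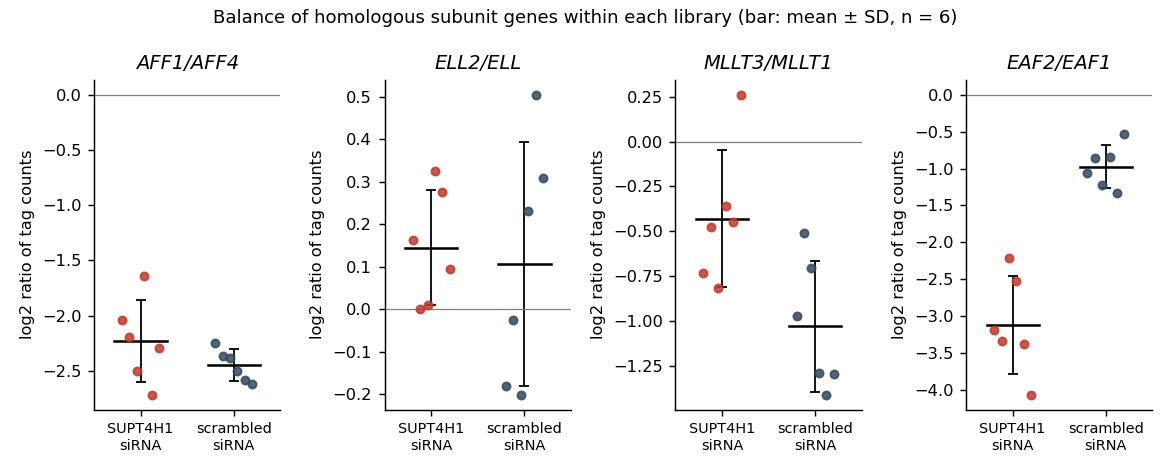
Log2 ratio of tag counts of homologous genes (vertical axes) in each library with SUPT4H1 siRNA (red) and scrambled siRNA (dark blue), with the mean and SD of 6. EAF2/EAF1 separates the groups without overlap (mean −3.12 with SUPT4H1 siRNA and −0.97 with scrambled siRNA), while the other 3 ratios overlap.

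On the spike-in scale the same genes are read against standards added in equal volume to each lysate of 1000000 cells, and the median of all genes tested was at −0.82 (56.7% of the scrambled level). Fewer cells in a lysate than that stated number and less RNA per cell cannot be told apart on this scale, and the mix differs with the group. Of the 8 genes 4 fell, EAF2, MLLT1, AFF4 and ELL, and 0 rose (edgeR, adjusted p under 0.05), where 59% of all tested genes fell and 0.304% rose. Besides these 4, EAF1 was higher and ELL2 lower at an unadjusted edgeR p under 0.05 (0.038 and 0.041). Neither passed the adjusted threshold, and the share of all genes at the unadjusted one was not counted. No other tool was run on this scale. The median of the 8 genes was −0.70. The count of 4 fallen genes was 6 without SUPT4H1 siRNA replicate 5, 5 without scrambled siRNA replicate 3, 4 without scrambled siRNA replicate 6, 1 without scrambled siRNA replicate 4 and 2 without any of the other 8 libraries. The values below are counts divided by the spike-in factor of the library, which has a geometric mean of 1 over the libraries.

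EAF2 had 15.6, 25.4 and 41.6 spike-in-scaled counts (lowest, median, highest) with SUPT4H1 siRNA and 55.0, 81.2 and 119 with scrambled siRNA. The groups of EAF2 did not overlap, which held for 1 of the 8 genes and for 8.6% of all tested genes. EAF2 fell to 33.5% of the scrambled level, −1.58 in log2 units (SE 0.37, edgeR adjusted p = 0.00027), and kept adjusted p of 0.0031 or less when any library was left out. EAF1 had 102, 260 and 441 spike-in-scaled counts with SUPT4H1 siRNA and 97.8, 164 and 214 with scrambled siRNA. In EAF1, 4 SUPT4H1 siRNA libraries were above all scrambled ones, and replicates 1 and 3 were among them. Its log2 fold change was 0.68 (SE 0.33, adjusted p = 0.061). EAF1 stayed uncalled in 13 of 16 alternative settings on this scale. Without SUPT4H1 siRNA replicate 6 its edgeR adjusted p was 0.15 at a log2 fold change of 0.56. It was 0.12 with the replicate number as a block and 0.053 with all ERCC subgroups as the standard. In the other direction, without SUPT4H1 siRNA replicate 1 the adjusted p of EAF1 was 0.0490 and without replicate 3 it was 0.024. With ERCC subgroup C as the standard it was 0.030 at a log2 fold change of 0.99.

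MLLT1 had 223, 286 and 626 spike-in-scaled counts with SUPT4H1 siRNA and 400, 545 and 1018 with scrambled siRNA. Its log2 fold change was −0.89 (SE 0.32, edgeR adjusted p = 0.015), and without scrambled siRNA replicate 4 the adjusted p was 0.068. AFF4 (−0.74, SE 0.32, adjusted p = 0.037) and ELL (−0.73, SE 0.33, adjusted p = 0.046) lay near the median of all genes. With ERCC subgroup C as the standard none of these calls held. There MLLT1 was at −0.56 (edgeR adjusted p = 0.20), AFF4 at −0.42 (0.34) and ELL at −0.41 (0.36). With all ERCC subgroups the adjusted p was 0.031 for MLLT1, 0.068 for AFF4 and 0.078 for ELL. For MLLT1, AFF4 and ELL alike, 5 SUPT4H1 siRNA libraries were below all scrambled ones, and replicate 5 was among them. The spike-in factor of a library is shared by all its genes. In SUPT4H1 siRNA replicate 5 the log2 ratio of endogenous counts to those of the 23 standards was 9.27. It was 7.625 to 8.376 in the others of its group and 8.784 to 9.744 with scrambled siRNA. The calls of AFF4 and ELL were lost when any 1 of SUPT4H1 siRNA replicates 1, 2, 3, 4 and 6 or scrambled siRNA replicates 1, 2, 4 and 5 was left out, with adjusted p between 0.052 and 0.12. MLLT3 was at −0.24 (SE 0.32, adjusted p = 0.49), AFF1 at −0.56 (SE 0.33, adjusted p = 0.12) and ELL2 at −0.67 (SE 0.33, adjusted p = 0.065). Without SUPT4H1 siRNA replicate 5 the adjusted p was 0.0096 for AFF1 and 9.15e-05 for ELL2, and without scrambled siRNA replicate 3 it was 0.046 for ELL2. ELL3 had 1.32 ± 1.67 spike-in-scaled counts with SUPT4H1 siRNA and 11.96 ± 4.35 with scrambled siRNA (SD, n = 6 each). The ELL3 groups again did not overlap (exact permutation test, unadjusted p = 0.00216), which held for 8.6% of all tested genes on this scale.

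**Figure D4:**
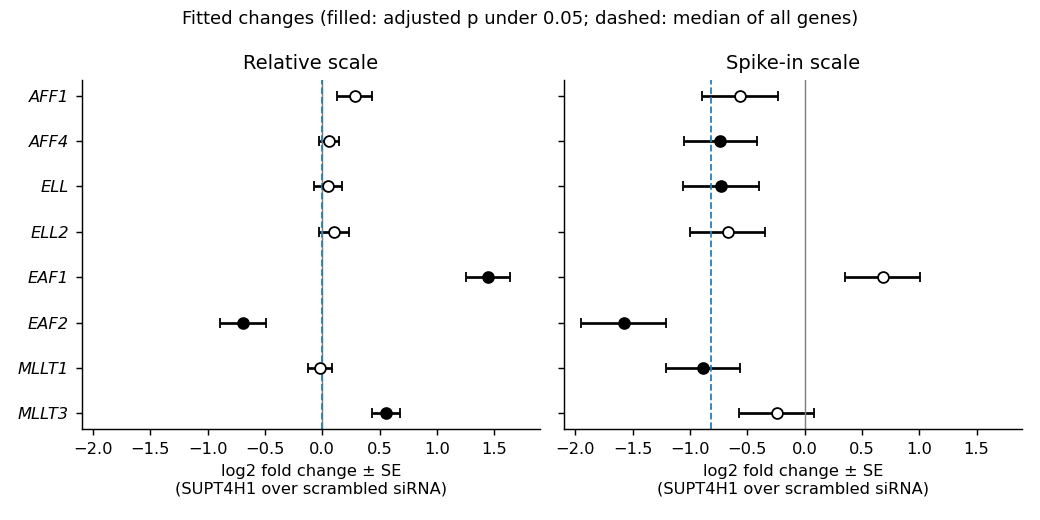
Fitted log2 fold changes with SE, SUPT4H1 over scrambled siRNA, of the 8 tested genes on the relative scale (left) and the spike-in scale (right). Filled points have an adjusted p under 0.05 and dashed lines mark the median of all genes (0.00 and −0.82). EAF1 lies above 0 on both scales and EAF2 below 0 on both.

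Genes that work with the complex or rest on it were taken from 5 lists, whose relative-scale counts stand beside 20.3% of all tested genes that rose and 19.8% that fell. Of 11 genes of P-TEFb and its control, 4 fell and 1 rose on the relative scale (median −0.05). The falls were BRD2, a bromodomain protein, at −0.53 (edgeR adjusted p = 2.31e-05), the cyclin genes CCNT2 at −0.53 and CCNT1 at −0.34, and JMJD6, which encodes a JmjC-domain protein, at −0.28. The rise was HEXIM1, an inhibitor of P-TEFb, at 0.52 (adjusted p = 0.024), and it also stands in the list of genes that rest on the complex. HEXIM1 and CDK9 are named after their values were seen. The kinase gene CDK9 had 5.58 ± 1.499 CPM with SUPT4H1 siRNA and 3.84 ± 1.19 CPM with scrambled siRNA (SD, n = 6 each, adjusted p = 0.053). Of 6 homologues of the scaffolds and partners of ELL, 3 rose and 0 fell (median 0.19). They were MED26, the Mediator subunit that recruits the complex, at 0.48, and the scaffold homologues AFF3 at 0.35 and AFF2 at 0.24. Of 4 partners of the YEATS proteins, DOT1L, the histone H3 methyltransferase that binds MLLT1 and MLLT3, fell by 0.69 (adjusted p = 1.35e-06) and none rose.

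Of 16 other elongation factor genes, 4 rose and 2 fell on the relative scale (median 0.04), with the NELF subunit genes NELFA at −0.49 and NELFB at −0.46, the cyclin gene CCNK at 0.36 and the large DSIF subunit gene SUPT5H at 0.27. Of 13 genes known from human cells for expression that rests on the complex, 12 were tested, 7 rose and 1 fell (median 0.51, or −0.31 on the spike-in scale, where 0 rose and 3 fell). Over all tested genes 20.3% rose and 19.8% fell on the relative scale, and 0.304% rose and 59% fell on the spike-in scale. The 4 smallest adjusted p were those of IER3 (0.98), the heat shock gene HSPA1B (0.69), EGR1 (0.93) and HOXA9 (−0.49). HSPA1B and the untested HSPA1A are near-identical copies, so the split of their counts is uncertain. On the spike-in scale none of IER3, HSPA1B and EGR1 passed the test (0.17, −0.14 and 0.12), and HOXA9 was at −1.34 (adjusted p = 0.00036). In the other 4 lists no gene rose on that scale, and 7 of the 11 P-TEFb genes, 1 of the 6 homologues and ELL partners, 3 of the 4 YEATS partners and 9 of the 16 other elongation factor genes fell, beside 59% of all tested genes.

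Likeness of pattern over the 12 libraries was measured by Pearson correlation of log2 CPM among 10665 genes with a mean of at least 5 CPM. The genes most like AFF4 were MESDC1 (r = 0.92), KIAA1429 (r = 0.92) and C9orf64 (r = 0.91). The genes most like EAF1 were GCC1 (r = 0.99), HIPK2 (r = 0.98) and ACTN1 (r = 0.98), and 372 genes reached 0.9 or more with EAF1 against 7 with AFF4. The points share their libraries and scaling factors, and for EAF1 they include the difference between the groups.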

How the data were processed

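QuantSeq 3′ mRNA libraries (Lexogen, forward kit) were made from 200 ng of RNA each, per the labels' protocols. The deposited table holds raw counts per gene for 12 libraries, with 92 ERCC standards and a GFP row that stayed out of library sizes. FastQC 0.11.5, STAR, MultiQC and R 3.4.3 with build GRCh38.p10 are named, per the submitters' processing notes. For the counting tool, the annotation and the strand, settings were not given in the sources used here. Gene positions are from GENCODE 29 (GRCh38).

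Counts were tested with edgeR 4.0.16 in R 4.3.3 (robust quasi-likelihood test, TMM over endogenous genes, then filterByExpr, no covariates; a first fit with the filter before TMM had been seen, and is kept as an alternative), with Benjamini-Hochberg adjustment over 13820 genes at 0.05. SE is the log2 fold change divided by the square root of F. For the spike-in scale, libraries were scaled by summed counts of ERCC subgroup B, listed from general knowledge of the standards, with no supplied table. Ratios used a pseudocount of 0.5. ELL3 was tested by permutation, a choice made after its counts were seen. Alternatives used DESeq2 1.42.0, limma 3.58.1, other scalings, filters and standards, RNA integrity, the replicate number and leaving out each library. Scripts were tested on simulated data.

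The members, gene lists and tests were chosen with earlier results of these data known. Named genes are the 9 members, SUPT4H1, up to 4 called genes per list by adjusted p, and the 3 genes most like AFF4 (highest CPM) and EAF1 (smallest adjusted p). Among 30 pairs of libraries within groups, chi-square divided by its degrees of freedom was 4.45 to 34.7, so no pair was counted as 1 sample. Intervals and limits cover counting error only, and depth limits EAF2 and ELL3 most.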

Additional observations from a re-analysis of the deposited data

How the results depend on the processing

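On the relative scale the calls of EAF1 (log2 1.25 to 1.54 over libraries left out), MLLT3 (0.46 to 0.61) and EAF2 (−0.83 to −0.61) held when any library was left out, with 2 members risen and 1 fallen each time. The count of fallen members was 2 with no filter, where ELL3 is tested, and 0 with at least 5 CPM in 6 libraries, where EAF2 is not tested, or with RNA integrity as a covariate. With the filter before TMM the same 3 members were called. Uncalled genes near 0 changed sign: ELL (−0.034) and ELL2 (−0.009) with RNA integrity, and MLLT1 with RNA integrity (0.02) or without TMM (0.009). So did AFF4 (−0.02 to 0.089 over libraries left out), ELL (−0.062 to 0.098) and MLLT1 (−0.081 to 0.02), each without SUPT4H1 siRNA replicate 6, and MLLT1 also without scrambled siRNA replicate 4 or 5. With libraries left out, 2524 to 2718 genes rose and 2466 to 3146 fell on the relative scale, and the SUPT4H1 value ran from −3.18 to −3.10.

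The spike-in scale depended more on its standards. With ERCC subgroup C, 68 genes rose and 2227 fell (42 and 8159 with subgroup B), 1 member rose and 1 fell, and MLLT3 changed sign (0.07). With all ERCC subgroups 2 members fell, and with at least 5 CPM in 6 libraries 23 genes rose. With libraries left out, 1 to 6 members fell and 0 or 1 rose, and 5618 to 12189 genes fell and 26 to 60 rose. The cause was not tested.

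Same-numbered libraries did not deviate together (correlations −0.42 to 0.13, and 1 of 6 SUPT4H1 libraries correlated best with its own number). So few pairs show no pairing by replicate number but cannot exclude one. With the replicate number as a block, 2 members rose and 1 fell on the relative scale, and 5 fell on the spike-in scale with ELL2 called (−0.81, edgeR adjusted p = 0.022). The sign-flip test of 6 differences, whose smallest p is 0.031, gave adjusted p = 0.19 for MLLT3 to MLLT1 (0.60) and 0.13 for EAF2 to EAF1 (−2.14). Leaving out libraries moved AFF1 to AFF4 between 0.10 and 0.32, ELL2 to ELL between −0.024 and 0.118 (below 0 without scrambled siRNA replicate 1 or 3), MLLT3 to MLLT1 between 0.46 and 0.71 and EAF2 to EAF1 between −2.32 and −1.95. Of 26 sets of 6 values, none held a library beyond Dixon's critical value. SUPT4H1 siRNA replicate 6 nonetheless stood apart from its group on the second principal component (38.4, against −19.5 to −3.92). Depth limits ELL3, with 10 counts in all with SUPT4H1 siRNA and 69 with scrambled siRNA.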
